A study of Drosophila melanogaster with 3 samples.

Results

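Deep intronic summits are the points of highest Scute signal that lay inside the introns of protein-coding genes, far from any gene start. They were taken from the authors' thresholded set of regions in the dm6 assembly, the regions that passed their test of reproducibility between replicates. A summit was kept when it lay over 5000 bp from the nearest protein-coding start in the Ensembl gene models, inside a protein-coding gene body and outside every protein-coding exon. This position rule used no signal value, and it kept 516 of 3612 summits, 14.3% (95% Wilson interval 13.2 to 15.5). The experiment was ChIP-seq of Scute in Drosophila melanogaster, with embryos that expressed a stable fusion of sc to GFP at its C terminus, of both sexes and 0 to 14 h old, and the tag was precipitated with an anti-GFP antibody. All 3 biological replicates belong to 1 group with no further treatment, so no comparison between groups was possible, and each carries the tagged gene. Whole embryos mix all cell types, so a region bound in few cells and one bound weakly in many cannot be told apart. The control that the authors list was not analysed here.

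Scute is a proneural protein of the basic helix-loop-helix (bHLH) family, which pairs with Daughterless and binds short palindromic sites called E-boxes to start neural fates. In flies, much of the DNA that controls where and when a gene is expressed lies far from the start, and long introns, above all the first, are a common place for such enhancers. A ChIP-seq region marks DNA recovered with the protein and does not show that the protein touches the DNA directly or regulates the gene around it.

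The sequences at the strongest members show what kind of DNA lay under these summits. The windows below are the 101 bp centred on the summit of the 6 members with the best mean rank on the arms 2L, 3L, 3R, 4 and X. They are on the plus strand of dm6, 5′ to 3′, in lower case, with E-boxes of the 10 forms searched in capitals.
osa, chr3R:17704356-17704456: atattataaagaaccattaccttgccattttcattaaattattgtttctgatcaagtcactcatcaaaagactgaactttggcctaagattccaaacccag
Hr4, chrX:1947697-1947797: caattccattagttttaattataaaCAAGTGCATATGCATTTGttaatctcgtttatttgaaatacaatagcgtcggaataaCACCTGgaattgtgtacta
Gug, chr3L:8458308-8458408: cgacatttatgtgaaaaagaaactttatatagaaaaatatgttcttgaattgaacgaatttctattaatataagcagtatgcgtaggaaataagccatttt
simj, chr3L:10682870-10682970: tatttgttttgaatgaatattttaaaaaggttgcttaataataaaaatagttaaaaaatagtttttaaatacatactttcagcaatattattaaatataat
S, chr2L:1072354-1072454: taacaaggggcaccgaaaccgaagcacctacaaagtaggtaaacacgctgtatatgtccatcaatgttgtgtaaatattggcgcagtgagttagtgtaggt
CG32486, chr3L:3060768-3060868: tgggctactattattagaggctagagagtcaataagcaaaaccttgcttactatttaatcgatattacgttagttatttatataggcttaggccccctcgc
Of the 6 windows only that of Hr4, a nuclear receptor gene, held an E-box, where 4 of the forms stood in capitals, 3 of them in 1 unbroken stretch left of the summit. The window in simj, a gene for a subunit of a nucleosome remodelling complex, had a GC content of 13.9%, and that in S, a gene for an EGF ligand trafficking protein, had 43.6%. All 6 lay in introns, 5 of them in a first intron of a host transcript, at 5407 to 13944 bp from the nearest start.

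The textbook site of the heterodimer with Daughterless is GCAGCTG or GCAGGTG, and it was rare at these summits. The 4 windows below, 101 bp centred on the site, are from the members of best mean rank on the same arms with such a site within 100 bp of the summit, and the site or its reverse complement is in capitals.
Raf, chrX:2300732-2300832: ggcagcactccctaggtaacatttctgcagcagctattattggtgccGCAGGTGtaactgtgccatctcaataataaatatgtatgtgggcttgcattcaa
ush, chr2L:510599-510699: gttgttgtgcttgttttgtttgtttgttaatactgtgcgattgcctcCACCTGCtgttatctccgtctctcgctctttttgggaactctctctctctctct
CG43759, chrX:18951509-18951609: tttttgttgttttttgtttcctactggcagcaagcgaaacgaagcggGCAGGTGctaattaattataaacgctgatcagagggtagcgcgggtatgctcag
tara, chr3R:16234879-16234979: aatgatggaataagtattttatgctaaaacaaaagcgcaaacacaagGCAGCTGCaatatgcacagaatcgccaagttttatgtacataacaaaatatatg
The site in Raf, a kinase gene of the Ras pathway, lay at 63 bp from its summit, and the member ranked 367, 209 and 256 in replicates 1, 2 and 3. The site in ush, a gene for a GATA cofactor, covered the summit, that in CG43759 lay 80 bp to its left and that in tara, a gene for a transcriptional cofactor, 12 bp to its right. In all, 19 of 516 members held the site in the 201 bp around the summit, 3.68% (95% interval 2.37 to 5.68), and their median mean rank of 2459 was close to the 2346 of all members.

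The word CACTG, of 5 bases, was common beside these summits on either strand, as described further on. The longer windows below are centred on the summit, from the 3 members of best mean rank on the same arms that held at least 3 copies, with the word in capitals on either strand.
E23, chr2L:3348218-3348468: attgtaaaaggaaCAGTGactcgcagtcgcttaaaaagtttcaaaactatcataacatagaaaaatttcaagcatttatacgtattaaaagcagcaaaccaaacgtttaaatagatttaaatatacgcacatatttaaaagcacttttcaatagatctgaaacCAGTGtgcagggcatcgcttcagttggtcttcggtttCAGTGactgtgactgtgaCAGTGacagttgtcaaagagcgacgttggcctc
Hr4, chrX:1963779-1964029: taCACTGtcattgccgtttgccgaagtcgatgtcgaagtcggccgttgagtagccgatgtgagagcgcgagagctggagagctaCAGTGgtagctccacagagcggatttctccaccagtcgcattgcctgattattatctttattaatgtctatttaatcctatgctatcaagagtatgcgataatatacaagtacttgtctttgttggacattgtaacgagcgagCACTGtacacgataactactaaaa
Pvf3, chr2L:7148182-7148432: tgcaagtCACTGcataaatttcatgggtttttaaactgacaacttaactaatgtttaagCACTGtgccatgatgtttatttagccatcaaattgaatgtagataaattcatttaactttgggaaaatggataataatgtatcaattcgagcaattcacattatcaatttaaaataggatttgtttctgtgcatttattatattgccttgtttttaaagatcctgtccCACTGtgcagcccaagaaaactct
The window in E23, an ecdysone-induced transporter gene, held 4 copies, and those in Hr4 and in Pvf3, a gene for a growth factor of the PDGF and VEGF family, held 3 each. The base pairs around the summit itself, in the middle of each window, held none. The E23 member ranked 761, 577 and 688 in the replicates, that in Hr4 536, 615 and 930, and that in Pvf3 1231, 995 and 813.

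The members of highest rank lay in sbb, Hr3, osa and Hr4. Regions were ranked by signal within each replicate's list of 30000, where rank 1 is the highest, and a thresholded region took the rank of the replicate region whose nearest thresholded summit within 250 bp it was. The best mean rank belonged to a region in the first intron of sbb (FBgn0285917), a corepressor gene, on 2R at 18336917 to 18337362 (dm6), 20116 bp from the nearest start. It ranked 28, 23 and 51, with signals of 389.3, 549.1 and 353.5 on each list's own scale, and its pooled signal was 1296. Among all thresholded regions its pooled rank was 28, and no member ranked higher. A region in a first intron of Hr3, a nuclear receptor gene, which also lay in the bodies of CG12912 and CG46321, ranked 36, 42 and 54. A region in the fourth intron of osa, a gene for a subunit of the Brahma remodelling complex, ranked 51, 79 and 76. The best member in Hr4 ranked 71, 80 and 73, and that in Gug, a gene for the corepressor Atrophin, ranked 101, 50 and 79. Those in simj, S, CG32486, sbb again, tara, osa again, Smr (a corepressor gene), fz (a Wnt and polarity receptor gene), tara again and Hr4 again completed the best 15. Their mean ranks ran from 89.3 in simj to 195.7 in Hr4. In each of the 15 the ranks in the 3 replicates stayed between 23 and 262. They were picked by these ranks, so their likeness is not evidence of reproducibility. Of the 100 regions with the highest pooled signal 6 were members (6%), and of the 500 highest 41 were (8.2%). Both shares are below the 14.3% of members in the whole thresholded set.

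**Figure D1:**
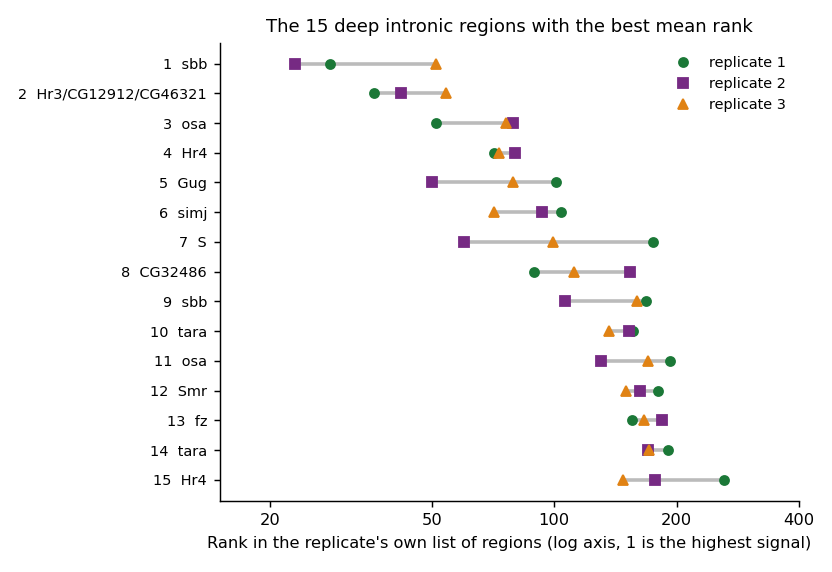
Ranks of the 15 deep intronic regions with the best mean rank, by host gene (vertical axis), in the 3 replicates (points, with a line from lowest to highest) on a log axis where 1 is the highest signal. The region in sbb ranked 28, 23 and 51 and the second in Hr4 262, 177 and 148.

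Deep introns held many listed regions, of which a small share reached the thresholded set. Of 30000 pooled regions 12% passed, and of the 5852 with a summit in deep introns 516 passed, 8.82% (95% interval 8.12 to 9.57). For near intronic summits, over 500 bp but not over 5000 bp from a start, 938 of 7202 passed, 13.02% (12.3 to 13.8). The ratio of the shares was 0.677 (Fisher's exact p = 1.95e-14, adjusted p = 9.74e-14). For distal intergenic summits, over 5000 bp from a start and outside gene bodies, 350 of 4462 passed, 7.84% (7.09 to 8.67), a ratio of 1.12 that did not pass (Fisher's exact p = 0.0792, adjusted p = 0.132). Direction and call of this second ratio changed with the rule. It was 0.844 with starts over 10000 bp away (Fisher's exact p = 0.0698), 1.22 with starts over 2000 bp away (Fisher's exact p = 0.000145) and 1.20 with all annotated genes (Fisher's exact p = 0.0399). The same was counted in each replicate's own list with its 3612 highest regions. Deep introns then gave 9.0% ± 0.715 (SD, n = 3), near introns 13.2% ± 0.277 and distal intergenic sequence 8.24% ± 0.387, with every replicate lower in deep than in near introns. Adjusted p-values of single tests here and below are Benjamini-Hochberg values over 15 tests. Such tests count regions, which are not replicates of the experiment, and intervals cover counting error only.

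**Figure D2:**
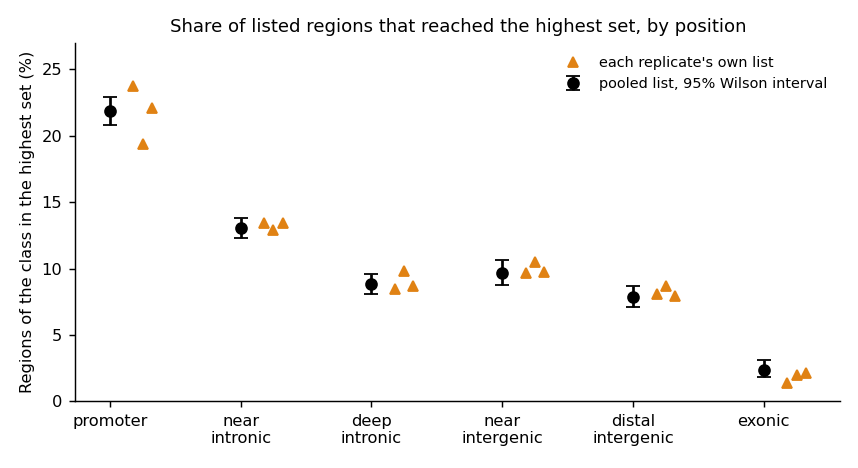
Share of listed regions of each position class that belonged to the thresholded set of the pooled list (black, with 95% Wilson interval) or to the 3612 highest regions of each replicate's own list (orange triangles). Deep introns stood at 8.82%, below promoters at 21.8% and near introns at 13.02%.

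Most members were found among the highest regions of each replicate, with shares close to those of the nearest classes. The thresholded set was itself chosen for reproducibility between these replicates, in every class. High shares here are therefore not evidence of reproducibility. Among the 3612 highest regions of replicates 1, 2 and 3 were 79.8%, 83.9% and 83.5% of the members, on average 82.4% ± 2.25 (SD, n = 3). All 3 replicates held 318 of the 516, 2 replicates 127, 1 replicate 68 and none 3. The share found in all 3 was 61.6%, against 62.2% of near intronic regions (Fisher's exact p = 0.866) and 60.3% of distal intergenic ones (Fisher's exact p = 0.723). A q-value under 5% in all 3 replicates was reached by 433 members, 83.9%. The ratio of this share to that of near intronic regions was 0.999. To that of distal intergenic regions it was 0.966 (Fisher's exact p = 0.245). The median pooled signal was 214.7 with a range of 146.0 to 1296, against medians of 230.9 in near introns and 207.0 in distal intergenic sequence. The share of members above the median signal of the thresholded set, 44.4%, passed against neither class (49.3% and 39.1%, Fisher's exact p = 0.0792 and 0.141). Against near introns the ratio of 0.901 became 0.855 and passed with starts over 2000 bp away (Fisher's exact p = 0.00538). With a replicate left out it ran from 0.827 to 0.839 and passed, and against distal intergenic regions the ratio of 1.13 turned to 0.893 to 0.977. Leaving out a replicate kept regions by their rank in the others, and rank is itself a measure of signal. Regions of at least the common width of 430 bp made up 75.2% of members and 69.0% of near intronic regions (Fisher's exact p = 0.0131, adjusted p = 0.0327). Distal intergenic regions had 70.9%, and the ratio of 1.06 to them did not pass (Fisher's exact p = 0.159, adjusted p = 0.199).

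The distance rule set a sharp edge in a continuous distribution. The 3 members closest to the limit lay in stumps at 5003 bp from the nearest start, cv-c at 5005 bp and tara at 5022 bp, with pooled signals of 158.2, 210.2 and 169.0. The 3 intronic summits just outside it lay in NetB at 4975 bp, CG46339 at 4987 bp and Pde11 at 4991 bp, with signals of 191.5, 181.7 and 148.8. The median distance of members was 9116 bp and the largest 76928 bp. From 5 to 10 kb the density was 27.4 members per Mb of eligible sequence, meaning called intronic bases that satisfy the rule. It was 16.6 per Mb from 10 to 20 kb, 12.9 per Mb from 20 to 50 kb and 0.594 per Mb beyond. The share of pooled regions that passed did not fall as steadily. In the same order it was 10.9%, 7.21%, 7.45% and 2.14%, the last of only 140 pooled regions. Only 3 members lay over 50 kb from a start, 2 in hth, a homeodomain cofactor gene of the Hox proteins, at 53534 and 76928 bp, and 1 in Sema1a, a gene for a guidance ligand, at 59506 bp. The hth member farthest out ranked 1339, 1711 and 934, inside the highest 3612 of every replicate.

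First introns held more members per base than later ones. First introns of any transcript made up 30.8% of the 30.2 Mb of eligible sequence and held 272 members, 52.7%. That is 29.2 per Mb, against 11.7 per Mb in later introns, a ratio of 2.50 (exact binomial p = 7.22e-25, adjusted p = 5.41e-24). The ratio was 1.81 between 5 and 10 kb, 1.88 between 10 and 20 kb and 2.14 between 20 and 50 kb from a start (exact binomial p = 5.04e-07, 0.000162 and 0.00252). Each of these is below 2.50. They leave out the sequence over 50 kb from a start, 5.05 Mb with 3 members, which the 2.50 includes. On bases outside repeat-masked sequence the ratio was 2.43 (exact binomial p = 3.88e-18). With listed regions in place of bases as the denominator it was smaller. Of 2554 pooled deep regions in first introns 10.7% passed the threshold, and of 3298 in later introns 7.40%, and their ratio was 1.44 (Fisher's exact p = 1.50e-05). The same ratio in the replicates' own lists was 1.61, 1.40 and 1.61, on average 1.54 ± 0.125 (SD, n = 3). Members in first introns had a median pooled signal of 234.8, those in later introns 202.4.

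Density was compared between X and the autosomal arms. The 102 members on X gave 19.7 per Mb, a ratio of 1.18 to the 4 large autosomal arms that did not pass (exact binomial p = 0.146). Among these, 2L had 21.9 per Mb, 3L 17.4, 3R 15.7 and 2R 12.98. The small chromosome 4 held 1 member.

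The members lay in 293 host genes, 15.8% of the 1851 protein-coding genes with eligible sequence. A single member was found in 163 hosts, 2 in 64 and 3 or more in 66. Eip75B (FBgn0000568), an ecdysone-induced nuclear receptor gene, held 8, of which 5 were found in all 3 replicates. The best of them, on 3L with its summit at 18005206, ranked 492, 506 and 291, and a weak one 199 bp away had no match in replicates 2 and 3. A replicate region was matched only to its nearest thresholded summit, so this need not mean that no region was listed there. Hosts with 6 were sbb, tara, pnt (an ETS factor gene of the EGFR pathway), jing (a zinc finger factor gene), SKIP, kirre (a gene for an adhesion protein of muscle founder cells) and hth. Hr4, CG42238 and ed, an adhesion protein gene, held 5 each. The nearest start was that of a host for 383 members, 74.2%, and that of another gene for 133.

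The number of members did not follow the length of deep introns alone. Eligible length was 46.4 kb in Eip75B, 16.1 kb in tara and 233.7 kb in kirre. So tara had 37.2 members per 100 kb and kirre 2.57, against 1.71 over all genes. Genes were split into 5 groups of nearly equal size by eligible length. The share with a member was 0.270% in the group with the shortest and 34.2% in that with the longest sequence, while the density was highest in the middle group at 3.18 members per 100 kb and stood at 1.29 in the longest. Myo81F, with the longest eligible sequence at 1946 kb, held no member and only 10 pooled regions. Pzl (698.9 kb), lovit (427.3 kb) and bru3, an RNA-binding protein gene (250.4 kb), held none either, with 2, 1 and 20 pooled regions.

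**Figure D3:**
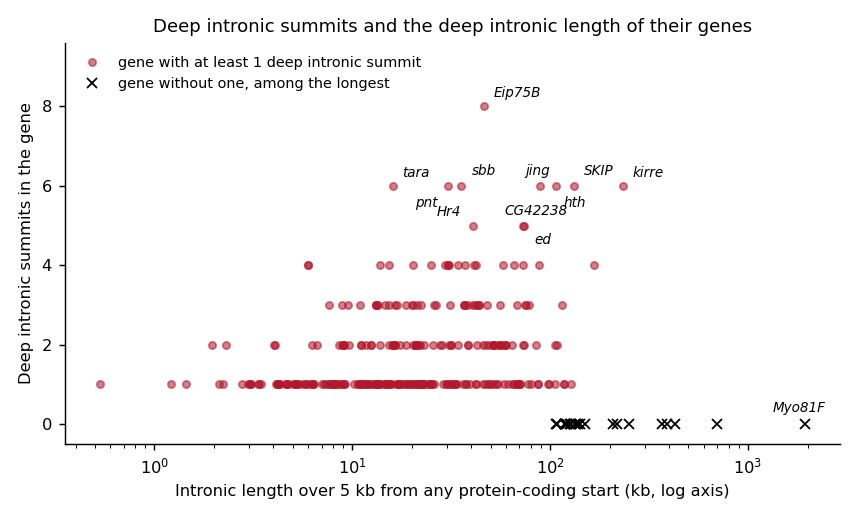
Number of deep intronic summits per gene (vertical axis) against the length of its introns over 5 kb from any protein-coding start (kb, log axis). Red points are the 293 host genes, with the 11 that held 5 or more named, and crosses are genes without a member among those with the longest such sequence, with Myo81F at 1946 kb.

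Nuclear receptor and ecdysone response genes, which time development through steroid pulses, held members in 8 of the 15 listed genes with eligible sequence. All genes together stood at 15.8%. The hosts of this list were Hr3, Hr4, E23, Eip75B, Eip74EF (an ETS factor gene), EcR (the ecdysone receptor gene), ftz-f1 and knrl, with 26 members. These were 26 of the list's 144 pooled deep intronic regions, 18.1% (95% interval 12.6 to 25.1), against 8.82% of all. Eip75B held 8 of the 26 and Hr4 5. Regions in 1 gene are not independent, which the interval does not cover. In EcR the better member ranked 2288, 1182 and 1515, and in Eip74EF 773, 519 and 363. The best member of every one of the first 4 genes lay among the highest 3612 regions of each replicate, while the knrl member ranked 2551, 3830 and 5655. The median eligible length in this list was 19.8 kb, against 6.06 kb over all genes, and the counts of hosts were not adjusted for it. No list was tested, and the lists were drawn up with earlier results of these data known.

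Among signalling genes, the list of the Wnt, Hedgehog and Dpp pathways held members in 11 of 21 genes, against 15.8% of all genes. Its median eligible length was 12.4 kb, also above the 6.06 kb of all genes, and 10.5% of its 237 pooled deep regions passed (95% interval 7.25 to 15.1), against 8.82% of all. Of these dpp and Wnt4 encode ligands, fz, fz2 and tkv receptors, dlp and dally glypicans, cv-2 and sog proteins that bind Dpp-type ligands outside the cell, and nkd and Dad inhibitors inside it. The best was in fz on 3L at 14303912 to 14304202, in its first intron and 25272 bp from the nearest start, with ranks of 155, 184 and 166. That in cv-2 ranked 377, 371 and 394, that in dlp 621, 482 and 539 and that in Dad 516, 518 and 768. The EGFR, FGF and Ras list held members in 7 of 15 genes, with a median eligible length of 8.04 kb, and 12.2% of its pooled deep regions passed (7.39 to 19.4). These were vn and bnl, which encode ligands, aos, a secreted inhibitor of EGFR, S and ru, which act in releasing EGFR ligands, stumps, an adaptor of the FGF receptors, and pnt, the transcription factor at the end of the pathway. The S member ranked 175, 60 and 99 and the vn member 399, 346 and 322. The Notch list held members in 4 of 8 genes, with a median eligible length of 11.6 kb, and 8.47% of its 59 pooled deep regions passed (3.67 to 18.4). The N member, in the receptor gene itself, ranked 515, 453 and 390, while those in fng, a glycosyltransferase gene acting on the receptor, mam, a coactivator gene, and kuz, a protease gene, had mean ranks of 1718 to 4600.

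Genes of the nervous system were counted in several lists, and differences between lists were not tested. Over all genes 15.8% of those with eligible sequence were hosts, and 8.82% of all pooled deep regions passed. Host shares were not adjusted for eligible length. Its median ran from 8.09 kb (sensory organ precursor) to 55.2 kb (RNA-binding), against 6.06 kb over all genes. No proneural or neural bHLH gene had eligible sequence, so this list could hold no member. Of 7 matched sensory organ precursor genes with such sequence 2 were hosts, cpo, an RNA-binding protein gene, with ranks of 900, 1864 and 780, and chn, a zinc finger factor gene, with 3738, 1573 and 2216. The homeodomain factor gene ct was a host too, with 3 members on 43.5 kb and best ranks of 1988, 1545 and 1302. It was entered in this list as cut, a name that did not match, so it is missing from the list's counts. Of the matched genes' 23 pooled deep regions 8.70% passed (2.42 to 26.8), without ct. Neuroblast genes gave 2 of 13, brat and mam, and 7.14% of 42 regions passed (2.46 to 19.0). Neuronal adhesion and wiring genes gave 10 of 43 with 22 members on 1874 kb, and 6.81% of 323 regions passed (4.54 to 10.1). The best were caps (676, 416 and 382) and Fas3 (482, 1180 and 697), both genes for cell surface adhesion proteins. Axon guidance genes gave 5 of 22, and 7.80% of 141 regions passed (4.41 to 13.4), with fra, the Netrin receptor gene, at 228, 638 and 444 and Sema1a at 424, 528 and 584. Ion channel and synapse genes gave 1 of 32 on 887 kb. This was Shal, a potassium channel gene, at 3783, 3046 and 5363, within the highest 3612 of 1 replicate. Of the 76 pooled deep regions in that list 1.32% passed (95% interval 0.233 to 7.08). RNA-binding and splicing genes, with 1168 kb, gave 7 of 18 hosts but only 9 members, and 4.04% of their 223 pooled deep regions passed (2.14 to 7.49).

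Other developmental lists were set beside the same 15.8% of hosts and 8.82% of passing regions over all genes, without a test. Intervals of the passing share included 8.82% in the Hox, mesoderm, epidermis, patterning, GATA and Polycomb lists. They were 4.48 to 14.3 for Hox, 3.61 to 11.7 for mesoderm and 7.72 to 23.7 for epidermis. Only the glial interval lay above 8.82%, and all its passing regions lay in 1 gene. Regions in 1 gene are not independent, which these intervals do not cover. Host shares were not adjusted for eligible length, with medians from 2.01 kb (glial) to 14.8 kb (Hox), against 6.06 kb over all genes. Hox genes and cofactors gave 2 of 10 and 8.13% of 123 regions, Antp with 4 members and hth with 6, and the best in Antp ranked 1032, 742 and 745. Mesoderm and muscle genes gave 5 of 18 and 6.58% of 152 regions, with how, an RNA-binding protein gene of muscle, at 1316, 1242 and 1194 and Mef2, a muscle transcription factor gene, at 2246, 1684 and 2019. Epidermis and polarity genes gave 6 of 17 and 13.9% of 72 regions, led by cno, a junction protein gene, at 1354, 798 and 1229. Patterning genes gave 3 of 10 and 12.96% of 54 regions, in ush, sog and cad. GATA and hemocyte genes gave 3 of 9 and 17.6% of 34 regions (8.35 to 33.5), in ush, grn (a GATA factor gene) and lz (a Runx factor gene), and lz, at 1792, 9118 and 3921, was among the highest 3612 of 1 replicate. Polycomb and trithorax genes gave 3 of 13 and 13.8% of 65 regions, in osa, jing and Psc. Of 6 glial genes only pnt was a host, and its 6 members made the highest passing share of any list, 20.7% of 29 regions (9.85 to 38.4), from this 1 gene. The lists together covered 257 genes with eligible sequence, of which 72 were hosts, and the other 221 hosts, ct among them, matched no list.

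A narrow dip in GC content marked the summits. In the 201 bp around the summit the mean GC content was 34.9% ± 6.36 (SD, n = 516 windows), and in windows 1000 bp away it was 39.9% ± 5.88. The difference of -5.01 ± 8.16 percentage points (SD over members) was negative for 387 of 512 members without a tie (exact sign test p = 3.49e-32, adjusted p = 5.23e-31). In bins of 51 bp the mean was 32.0% at the summit and 39.4% at 1000 bp to the left. Between them it rose to 44.9% at 300 bp to the left and 44.5% at 200 bp to the right, above the level farther out. The replicates' own highest deep intronic summits gave 33.6%, 33.2% and 31.9% in the central bin, on average 32.9% ± 0.882 (SD, n = 3). Near intronic summits fell to 31.8% and distal intergenic ones to 32.1%, so the dip was not limited to deep introns. The shoulders of distal intergenic regions reached 46.4%.

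**Figure D4:**
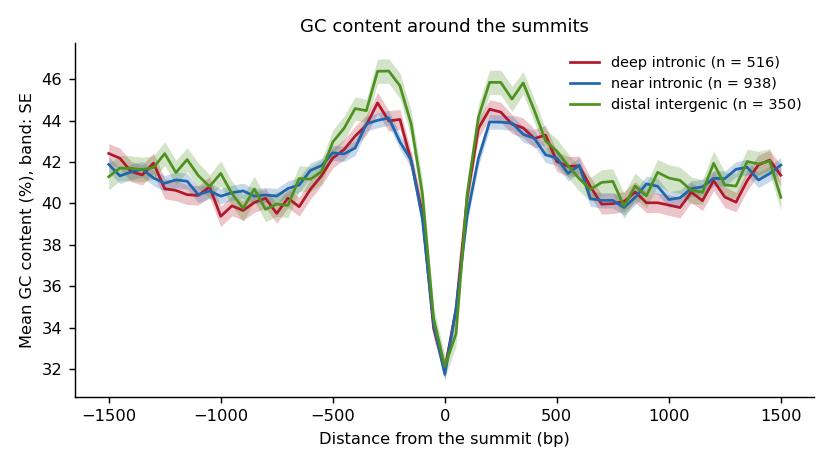
Mean GC content in 51 bp bins (vertical axis, percent) by distance from the summit (bp), for deep intronic, near intronic and distal intergenic summits, with bands of 1 standard error. In all 3 classes the mean dips to about 32% at the summit, and in deep introns it peaks at 44.9% on the left shoulder.

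Of 25 motifs compared between the summits and flanks 1000 bp away, none was more frequent at summits (0% of 25 called higher) and 1 was less frequent (4% called lower). This was the heterodimer site, GCAGCTG or GCAGGTG on either strand, in 19 of 514 summit windows, 3.70%, and 44 flanks, 8.56%, a ratio of 0.432 (exact McNemar test, adjusted p = 0.0316). It passed with all settings as given and no longer passed in 8 of 9 alternatives. With a flank 2000 bp away, for example, the ratio was 0.514 (exact McNemar test, adjusted p = 0.248), and with replicate 1, 2 or 3 left out it was 0.536, 0.480 and 0.50. Of all 30000 pooled windows 6.52% held the site, as did 6.37% of the deep intronic windows below the threshold. The site has 5 G or C in 7 bases, and GC content was lower at summits than in flanks as given above. The part of base composition in its lower share was not tested. The E-box CAGCTG was in 4.86% of summits and 8.75% of flanks and CACGTG in 0.973% and 3.31%, and neither passed (exact McNemar test, adjusted p = 0.111 each). The site of GATA factors, AGATAAG or TGATAAG, was in 8.17% of summits and 4.47% of flanks (exact McNemar test, adjusted p = 0.111). Without adjustment 6 of the 25 had p under 0.05.

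Between classes, none of the 25 motifs passed against near intronic windows (0% called), where 1 had an unadjusted p under 0.05, and 1 passed against distal intergenic windows (4% called). The E-box CAATTG was in 56 of 516 deep intronic windows, 10.9%, and 16 of 350 distal intergenic ones, 4.57% (Fisher's exact test, adjusted p = 0.0250). It was in 8.51% of all pooled windows and in 8.88% of deep intronic windows below the threshold. With starts over 2000 bp away, or with the exons and starts of all annotated genes, it no longer passed.

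All 2080 distinct words of 6 bases were then compared in the same way, a test added after the motifs had been seen. At summits, by the exact McNemar test, 97 words were more frequent (4.66% called higher) and 74 less frequent (3.56% called lower). With replicate 1, 2 or 3 left out, 70, 72 and 52 were more frequent and 27, 34 and 28 less frequent, and in the 50% of regions with the higher signal 14 and 2 were. Of the 97, 71 had at most 1 G or C, and of the 74, 66 had at least 3. GC content was lower at summits too, and its part in these counts was not tested. Against that trend 19 of the more frequent words had 3 or more G or C. The strongest was CAGTGC, in 16.5% of summit windows and 5.84% of flanks (exact McNemar test, adjusted p = 1.23e-05). Next came GTGCAC (10.7% against 3.11%, exact McNemar test, adjusted p = 0.000187), ACTGAG (13.8% against 5.06%, adjusted p = 0.000209), ACAGTG (16.9% against 7.0%) and CACTGA (17.7% against 7.98%). These words overlap, and 7 of the 19 contain CACTG or its reverse complement CAGTG. Only 8 of the 2080 words contain it, and all 8 were more frequent at summits than in flanks, 7 of them past the threshold. Among near intronic summits, which are other regions of the same experiment, 15 of the 19 words were also called more frequent, and among distal intergenic summits 9 were. No factor was assigned to these words.

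The word CACTG was more frequent beside the summit than on it. It was found in the summit windows of 240 members, 46.5% (95% interval 42.2 to 50.8), and in 21.6% of flanks (18.3 to 25.4), a ratio of 2.16 over 514 pairs (exact McNemar p = 9.81e-17, on a word chosen from these windows). In bins of 51 bp it was in 6.20% of members at the summit, in 17.1% at 100 bp to the left and 20.2% at 100 bp to the right, and in 7.0% at 1000 bp to the left. Near intronic summits gave 8.74% at the summit and 17.1% and 16.7% at 100 bp on either side, and distal intergenic ones 10%, 22.3% and 20.6%. In the whole window the word was in 47.4% of near intronic and 51.1% of distal intergenic regions, and neither comparison with deep introns passed (Fisher's exact p = 0.742 and 0.189). Promoters had 40.5%. Of all pooled windows 36.5% held it, and of the deep intronic windows below the threshold 34.8% (33.5 to 36.1). In the replicates' own highest deep intronic regions the share was 47.4%, 47.6% and 47.4%. Members with a signal above their own median held the word in 51.2% and the others in 41.9%, and that ratio was 1.22 (Fisher's exact p = 0.0423). First and later introns held it in 48.5% and 44.3% (Fisher's exact p = 0.377).

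**Figure D5:**
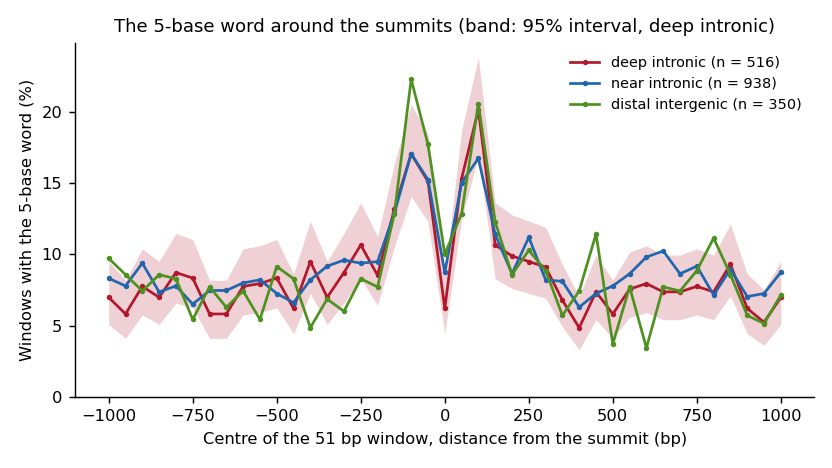
Share of regions with the 5-base word in a 51 bp window (vertical axis, percent) by the distance of the window from the summit (bp), for deep intronic, near intronic and distal intergenic summits, with a 95% Wilson interval for deep introns. The share in deep introns is 6.20% at the summit and reaches 20.2% at 100 bp on the right.

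Other features of the surroundings were the distance to the next summit, non-coding starts and repeats. Another thresholded summit within 5 kb was found for 232 members, 45.0%, against 58.8% of near intronic regions and 51.7% of distal intergenic regions (Fisher's exact p = 0.0526, adjusted p = 0.113, for the second). The position rule bears on the first difference, since near intronic summits can have the summit of a promoter within 5 kb. Deep intronic ones hardly can, so this difference is given without a test result. Its p-value was still 1 of the 15 adjusted together. A start of a non-coding gene lay within 500 bp of 12 members, 2.33%, and of 2.77% of near intronic regions. Their ratio of 0.839 did not pass (Fisher's exact p = 0.732, adjusted p = 0.784), so the low share was not limited to deep introns. How far the density of non-coding starts in each class sets these shares was not tested. Distal intergenic regions had 7.43%, and the ratio of deep introns to them was 0.313 (Fisher's exact p = 0.000539, adjusted p = 0.00162). Without replicate 2 this ratio was 0.471 and just missed the threshold (Fisher's exact p = 0.0504), and in the 50% of regions with the higher signal it was 0.538 (Fisher's exact p = 0.222). The 12 included lncRNA:CR46036 in osa at 149 bp and lncRNA:yar, the yellow-achaete intergenic RNA, in the body of CG32816 at 99 bp. Of the 12 genes, 11 were annotated as ncRNA and 1 as tRNA. Annotated transposable elements held 4 members, and 23 windows were mostly repeat-masked.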

How the data were processed

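Per the labels, chromatin was sonicated to 200 to 800 bp and precipitated with an antibody against GFP. The authors deposited region lists for each of the 3 replicates, for the replicates pooled, and the thresholded set, which passed the irreproducible discovery rate procedure. The deposited signal of each region, on a scale of its own list, ranked regions. The −log10 of the q-value, deposited by the authors, counted regions with q under 5%, and the summit came from the deposited offset. Which peak caller and aligner made them was not given in the sources used here, and with no reads in the lists the depth is unknown, so intervals come from the number of regions.

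Summits were placed in the Release 6 genome (dm6, 1-based positions) with Ensembl genes. Classes were promoter (within 500 bp of a protein-coding start), exonic, and near or deep intronic and near or distal intergenic on either side of 5000 bp. Motifs were sought within 100 bp of summits, with flanks 1000 bp away that lay over 300 bp from any other summit, and 2 members had no such flank. Tests were two-sided Fisher, McNemar, sign and binomial tests, all exact, with Benjamini-Hochberg adjustment at 0.05 over the 15 single tests, the 25 motifs and the 2080 words separately. Members, gene lists and tests were chosen with earlier results of these data known. Named genes were hosts of the 15 best members, the 10 hosts with most members and the 4 best hosts of each of 18 lists. Other genes named were chosen after their values were seen. The list symbols cut and calypso did not match. Test functions were checked on simulated data. Python 3.11.15, numpy 2.4.6, scipy 1.17.1 and matplotlib 3.10.9 were used. Alternatives are given in the closing section.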

Additional observations from a re-analysis of the deposited data

Results flagged for a closer look

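Regions with low q-values were also listed outside the thresholded set. Of the 5336 deep intronic regions of the pooled list below the threshold, 474 (8.88%) had a q-value under 5%. This is more than the limit of 3 that a count of 0 allows, which is no measure of background, and with no control analysed here the number says nothing of background. Of these, 53 (11.2%) also had a region with q under 5% within 250 bp in all 3 replicates. They lay in first introns in 49.2% of cases, their summit windows had a GC content of 36.3% ± 6.78 (SD over 474 windows), and 226 (47.7%) held the word CACTG. The genes with most of them were kirre with 12, hth with 9, fz2 with 8 and fz with 7, and 150 of the genes that held one held no member.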

How the results depend on the processing

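Ratios below compare deep intronic with near intronic, then distal intergenic regions, unless flanks are named. Of 190 values under alternatives, 117 kept direction and side of the threshold (or, for counts, stayed within 1.5 times), 31 counts moved further, 17 reversed, 13 newly passed and 12 no longer passed. In every alternative run for them, the GC difference (-4.78 to -6.43 percentage points), the first intron ratio (1.44 to 3.66) and the passing share against near introns (0.542 to 0.703) kept direction and passed. The ratio of the word CACTG to flanks ran from 1.72 to 2.24 in subsets of the windows it was chosen from, so its passing there is no support.

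Starts over 10000 bp away left 222 members in 133 hosts and starts over 2000 bp away 927 in 496, and the 50% of regions with the higher signal held members in 169 hosts. With starts over 10000 bp away, against distal intergenic regions, the passing share turned to 0.844 and the upper signal share to 0.999, while the width share (1.14) and the clustered share (0.758) passed. With starts over 2000 bp away, the passing share (1.22, distal), the upper signal share (0.855, near) and the X density (1.23) passed. The clustered share against near introns was 0.932. It is counted above but is no test result, since the position rule bears on it. The non-coding start share against near introns turned to 1.09. With all annotated genes, the passing share against distal regions (1.20) passed and the clustered share turned to 1.01.

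In the 50% of regions with the higher signal, where the signal that chose them is also what the upper signal share counts, the upper signal share became 0.809 (near, passing) and 0.789 (distal, turned), the share found in all replicates turned to 1.03 and 0.972, the width share was 1.14 (near, no longer passing) and 1.63 (distal, passing), the clustered share turned to 1.03 (distal), and the non-coding start share became 1.01 (near, turned) and 0.538 (distal, no longer passing). Matching within 100 bp turned the share found in all replicates against distal regions to 0.962, and q under 5% to 0.966.

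The heterodimer site's ratio to flanks no longer passed over 10000 bp (0.917) or 2000 bp (0.75) from starts, with all genes (0.64), with the higher signal (0.294) or with flanks 2000 bp away (0.514), and the number of motifs called lower was then 0, against 3 in windows of 50 bp each side. Without a replicate the ratio ran from 0.48 to 0.536 with 0 motifs called. The number of motifs differing from distal windows was 0 over 2000 bp from starts and with all genes. Words of 6 bases called higher and lower numbered 12 and 3 over 10000 bp, 191 and 261 over 2000 bp, 14 and 2 with the higher signal, 151 and 147 with flanks 2000 bp away, and 53 and 31 in 50 bp windows. With all genes 44 were lower.

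Leaving out a replicate kept only regions found in both others, so fewer regions were tested. It gave 0.827 to 0.839 (near) and 0.893 to 0.977 (distal) for the upper signal share, 1.10 to 1.15 for the width share and 0.813 to 0.885 for the clustered share against distal regions, 1.05 to 1.11 (near) and 0.406 to 0.477 (distal) for the non-coding start share, and 52 to 72 words higher and 27 to 34 lower. Without replicate 1 the width and clustered shares against distal regions passed, and without replicate 2 the non-coding start share against distal regions no longer did. Causes of these shifts were not tested. The word counts, the word CACTG, widths, non-coding starts, host counts, comparisons of motifs between classes and first-intron strata were added after seeing the data. No paired analysis was possible because the replicate numbers occur in only 1 group. Depth is unknown and the control was not analysed here, so how far depth sets which regions passed was not tested.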

Other observations

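The word CACTG was also counted by strand, after it had been noticed in these regions. A copy was said to point toward the summit when CACTG stood on the plus strand to its left or on the minus strand to its right. Between 30 and 160 bp from the summit, a zone chosen after the profile was seen, 286 copies beside deep intronic summits pointed toward it and 186 away, so 60.6% pointed toward it. By region, 168 members had more copies toward the summit and 102 more away (exact sign test p = 7.07e-05). From 0 to 200 bp the numbers were 182 and 127 (exact sign test p = 0.00208). Between 600 and 1500 bp, 802 copies pointed toward the summit and 739 away, 52.04%, with 215 members against 164 (exact sign test p = 0.0101), so a smaller excess was seen there too.

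Regions outside deep introns gave the same count over other DNA. Beside distal intergenic summits 242 copies pointed toward the summit and 114 away, with 131 regions against 58 (exact sign test p = 1.15e-07). Near intronic summits had 479 and 380, with 270 regions against 207 (exact sign test p = 0.00448). Promoter summits had 517 and 575, with 301 regions against 332 (exact sign test p = 0.233). Between 600 and 1500 bp the numbers of regions were 128 and 136 for distal intergenic summits (exact sign test p = 0.667), 345 and 377 for near intronic ones (exact sign test p = 0.249) and 579 and 460 for promoters (exact sign test p = 0.000248), so far from promoter summits the copies were also skewed. Deep intronic regions below the threshold had 52.7% of copies toward the summit. The replicates' own highest deep intronic regions gave 60.2%, 60.2% and 54.9% toward the summit, on average 58.4% ± 3.07 (SD, n = 3), and 50.8% ± 0.242 in the zone from 600 to 1500 bp. First introns gave 60.3% and later introns 61.0%. These 4 classes and 3 zones were counted in one family without adjustment, copies in a region are not independent, and whether the classes differ from each other was not tested.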
